A study of Mus musculus with 20 samples.

Results

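The NF-kB subunit genes Rela, Relb, Rel, Nfkb1 and Nfkb2 were followed in murine B16 Bcr-Abl+ cells transfected with p65 constructs. Every non-control array probe whose accession belongs to 1 of these 5 genes was taken, which gave 7 of the 39429 non-control probes, for 5 of 21612 gene symbols. Rela and Rel each had 1 probe, as did Nfkb2, while Relb and Nfkb1 had a pair each. Total RNA was labelled with Cy3 and read on 20 single-colour Agilent arrays in 6 groups. The N+C group (5 arrays) received plasmids for p65 residues 1 to 361 and 362 to 549 together. The N-fragment group received residues 1 to 361, the C-fragment group residues 362 to 549, the D361E group the non-cleavable p65 mutant and the WT group wild-type p65. The last group, titled "Blanck", was read as the void plasmid. Each of these 5 groups had 3 arrays. All groups share the B16 line, a melanoma line carrying the Bcr-Abl kinase, and the same DMEM culture conditions. The labels give the strain as C3H eOuJ, which could not be checked here and may not be that of B16. Neither the share of cells that took up a plasmid nor the amount of p65 protein was available here. The labels do not say whether the arrays of a group came from separate cultures, so a p-value here is set against the spread among the arrays of a group, which may be technical.

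NF-kB transcription factors are dimers of these 5 proteins. Rela (p65), Relb and Rel (c-Rel) carry a transactivation domain next to the Rel homology domain that binds DNA and forms the dimer, whereas Nfkb1 and Nfkb2 encode the precursors p105 and p100, which are processed to the DNA-binding subunits p50 and p52. IkB proteins hold dimers in the cytoplasm until the IKK complex marks them for degradation. Relb pairs with the product of Nfkb2 in the alternative pathway, and several family genes, Relb, Nfkb1 and Nfkb2 among them, are known targets of NF-kB. Residue 361 is the caspase site of p65 that the mutant lacks. The N-fragment keeps the Rel homology domain and the C-fragment the transactivation part.

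The upstream sequences of Nfkb2, Rel and Rela are shown because these 3 genes differ in how many NF-kB consensus matches lie before their annotated starts. RefSeq's promoter table (build GRCm38.p6) held 3 of the 5 genes, and Relb and Nfkb1 are named only. The windows are the 250 bases before an annotated start, 5′ to 3′ on the gene's strand, with each match to the 10-base kappaB consensus on either strand in capitals and overlapping matches joined. Of 32851 windows of that length in the table, 3.9% held a match. The first and the last of the annotated Nfkb2 windows lie on the plus strand at chr19:46304487-46304736 and chr19:46305680-46305929, that of Rel on the minus strand at chr11:23770970-23771219 and that of Rela on the plus strand at chr19:5637291-5637540.
Nfkb2, first start: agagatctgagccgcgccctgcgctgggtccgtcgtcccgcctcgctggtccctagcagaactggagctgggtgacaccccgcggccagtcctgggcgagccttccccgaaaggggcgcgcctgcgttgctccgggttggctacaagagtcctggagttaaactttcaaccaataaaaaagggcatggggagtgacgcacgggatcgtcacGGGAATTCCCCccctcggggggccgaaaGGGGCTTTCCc
Nfkb2, last start: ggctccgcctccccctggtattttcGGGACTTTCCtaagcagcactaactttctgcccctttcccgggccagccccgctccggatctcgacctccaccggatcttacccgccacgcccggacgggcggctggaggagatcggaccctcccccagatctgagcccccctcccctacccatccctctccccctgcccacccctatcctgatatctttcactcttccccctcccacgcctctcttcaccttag
Rel: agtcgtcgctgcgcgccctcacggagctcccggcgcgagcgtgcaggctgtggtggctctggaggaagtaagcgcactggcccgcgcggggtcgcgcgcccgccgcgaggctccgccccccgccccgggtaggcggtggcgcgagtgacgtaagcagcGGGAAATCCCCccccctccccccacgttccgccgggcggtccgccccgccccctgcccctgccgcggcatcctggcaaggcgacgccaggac
Rela: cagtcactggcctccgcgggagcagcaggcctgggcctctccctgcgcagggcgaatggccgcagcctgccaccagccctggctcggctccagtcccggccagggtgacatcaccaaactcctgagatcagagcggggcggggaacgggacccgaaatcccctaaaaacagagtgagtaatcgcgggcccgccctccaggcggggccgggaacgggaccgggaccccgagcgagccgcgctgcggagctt
The first Nfkb2 window held 3 matches, an overlapping pair from 39 to 29 bases before the start and GGGGCTTTCC from 11 to 2 bases before it. The last held GGGACTTTCC, from 225 to 216 bases before its start, and a window between them held 1 match. Rel held an overlapping pair from 92 to 82 bases before its start, and the Rela window held 0. A match describes letters in a window and was not tested as a binding site.

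The signal of a probe was divided by the 75th percentile of its array, and the result is called its relative level below. On each array 51.1 to 57.9% of the 43020 non-control spots were well above background, and the 75th percentile differed up to 1.44-fold between arrays. Of the 7 probes, 6 were above background on all 20 arrays and entered a limma fit with 23433 probes. A probe was called at a Benjamini-Hochberg adjusted p under 0.05 over those probes, and errors of differences are standard errors of the fit. The arrays lay on 5 slides of 4, each with arrays of several groups. The 5 N+C arrays fell into a set of 3 and a set of 2 (Pearson r over probes 0.989 to 0.992 within the first, 0.992 within the second and 0.973 to 0.982 between them), so N+C results of the subunit genes are also given with each set alone where a call changed between the sets or a called difference moved by over 1.5 times. All 8 melanocyte markers (Mitf, Tyr, Tyrp1, Dct, Pmel, Mlana, Sox10 and Mc1r) were above background on all 20 arrays, as the B16 label states, while 6 of 9 haematopoietic and B-lymphoid markers, Ptprc included, were above it on none. Of the others in that list Cd22 was above background on all 20 arrays, and of 5 macrophage markers Cd68 and Csf1r were above it on all 20 and Adgre1 on none.

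**Figure D1:**
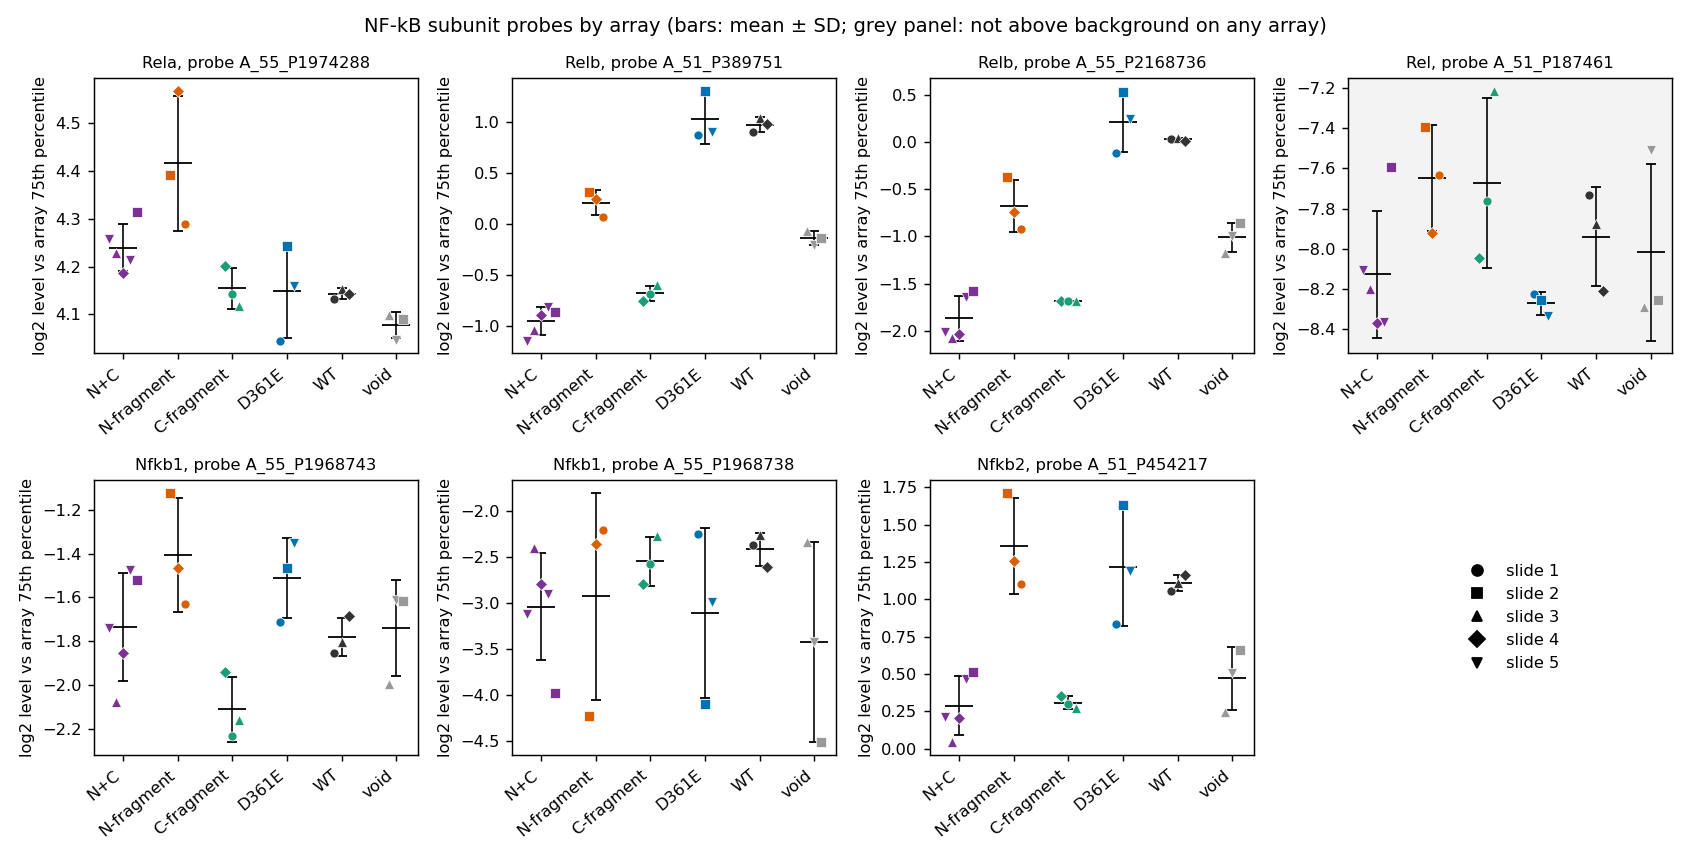
Level of each NF-kB subunit probe on every array, as log2 of its signal over the array's 75th percentile (y axis), by group (x axis); symbols mark the slide, and bars the group mean ± SD (n = 5 for N+C, 3 otherwise). Relb was high with D361E and WT and low with both N+C and C-fragment, Rela spanned 1.44-fold over the 20 arrays, and the grey Rel panel was not above background on any array.

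Rela, the gene of p65 itself, was bright in every group and differed little between them. Its 1 probe (A_55_P1974288, accession NM_009045) had intensities of 15138 to 28651, at most 3.67% of the scanner's saturation value, and its highest relative level was 1.44 times its lowest. The files do not give where this probe lies, so whether it sees the 5′ part of the transcript, the 3′ part, both or the untranslated ends is not known. It therefore does not check the transfections, and the groups are named by their labels throughout.

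Rela was highest with the N-fragment. The relative level of Rela was 21.0, 23.7 and 19.5 on the N-fragment arrays, against 17.1, 16.5 and 17.0 on the void arrays. All 3 N-fragment arrays lay above all void arrays. Rela rose 1.26-fold with the N-fragment (log2 difference 0.34 ± 0.07, limma adjusted p = 0.00107), with 0.35 when slide was a block and 0.30 on the 1 slide that holds both groups. In bulk RNA a change in the cells that make up a sample and a change in RNA per cell cannot be told apart. The summed relative level of 4 fibroblast markers was also higher in the N-fragment group (2.63 to 3.19, against 1.20 to 1.51 with void), with Dcn above background on none of the 20 arrays and Col1a2 on all of them. The part of these markers in the N-fragment results was not tested.

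None of the other constructs gave a called Rela difference from void. The relative level was 19.1, 18.7, 18.2, 18.5 and 19.9 on the N+C arrays and 18.4, 17.7 and 17.4 on the C-fragment arrays. It was 16.5, 18.9 and 17.9 on the D361E arrays and 17.5, 17.8 and 17.7 on the WT arrays. The WT arrays differed little among themselves and lay just above the void arrays, and the D361E arrays overlapped both. WT gave 1.05-fold the void level of Rela (log2 0.06 ± 0.07, adjusted p = 0.607), with a 95% interval of 0.947 to 1.15-fold. That interval holds for this scaling and for a fit without slide. The WT difference was log2 0.09 with slide as a block (adjusted p = 0.416) and 0.14 after quantile normalization (adjusted p = 0.17). D361E gave log2 0.07 ± 0.07 (adjusted p = 0.582) and the C-fragment 0.08 ± 0.07 (adjusted p = 0.497). N+C gave log2 0.16 ± 0.06 with an adjusted p of 0.0605, and 0.16 with an adjusted p of 0.0386 when slide was a block. N+C was also called after quantile normalization (log2 0.18, adjusted p = 0.023) and after normexp with quantile normalization (0.18, adjusted p = 0.0265). On unscaled intensities N+C (log2 0.39, adjusted p = 0.00358), WT (0.47, adjusted p = 0.00235) and the C-fragment (0.32, adjusted p = 0.0365) were called.

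Against the other constructs Rela was likewise higher with the N-fragment. The N-fragment exceeded WT by log2 0.27 ± 0.07 (adjusted p = 0.00587), the C-fragment by 0.26 ± 0.07 (adjusted p = 0.0106) and D361E by 0.27 ± 0.07 (adjusted p = 0.00754). In each of these the 3 N-fragment arrays lay above all arrays of the other group. Fitted on the compared arrays alone, these adjusted p-values were 0.0681, 0.0909 and 0.14, and the C-fragment call was lost without N-fragment array 2 (0.0621). N+C was below the N-fragment by log2 -0.18 ± 0.06 (adjusted p = 0.0459), with overlapping arrays. This call was lost without N-fragment array 1 or 2 (adjusted p = 0.0764 and 0.301), without any 1 of N+C arrays 1 to 4 (0.0645 to 0.0919) and in a fit on the compared arrays alone (0.224). It was also lost after normexp (0.0766), without the filter on dim probes (0.122) and with N+C arrays 4 and 5 alone (0.186). The order of Rela levels was N-fragment, N+C, C-fragment, D361E, WT and void, and of the neighbouring pairs tested the N-fragment and N+C were called different, with the losses just given.

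Relb rose about as much with D361E as with WT, rose less with the N-fragment, and fell below the void level with the C-fragment and with N+C. The brighter Relb probe (A_51_P389751, accession NM_009046) had relative levels of 1.86, 2.05 and 1.97 on the WT arrays and 0.950, 0.866 and 0.911 on the void arrays. D361E arrays read 1.83, 2.47 and 1.87. Every D361E and WT array lay above every void array.

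WT raised Relb 2.16-fold over void (log2 1.11 ± 0.11, adjusted p = 1.13e-05), with 1.17 when slide was a block and 1.11 on the 1 shared slide. D361E raised it 2.24-fold (log2 1.16 ± 0.11, adjusted p = 2.97e-06), with 1.21 when slide was a block and 1.11 to 1.44 on 2 slides. D361E and WT were not called different (log2 0.05 ± 0.11, 95% interval -0.18 to 0.29, adjusted p = 0.851). On this probe that interval still allows a Relb level up to 1.22-fold higher with D361E.

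The relative level of Relb was 1.24, 1.18 and 1.05 on the N-fragment arrays. These arrays lay above all void arrays and below all WT arrays. The N-fragment raised Relb 1.27-fold over void (log2 0.35 ± 0.11, adjusted p = 0.0245), with 0.38 when slide was a block and 0.45 on the 1 shared slide. This call was lost without void array 2 (adjusted p = 0.0854), void array 3 (0.0549), N-fragment array 1 (0.0871) or N-fragment array 2 (0.0727). Against WT the N-fragment level of Relb was lower by log2 -0.77 ± 0.11 (adjusted p = 6.97e-05), and against D361E by -0.82 ± 0.11 (adjusted p = 4.09e-05).

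The relative level of Relb was 0.452, 0.486, 0.538, 0.568 and 0.547 on the N+C arrays and 0.592, 0.620 and 0.659 on the C-fragment arrays. No array of either group reached the void level. Relative to void, Relb fell by 0.54 ± 0.11 on the log2 scale with the C-fragment (adjusted p = 0.0041), with -0.48 when slide was a block and -0.53 on the 1 shared slide. N+C lowered it by log2 -0.81 ± 0.10 (adjusted p = 2.01e-05), with -0.97 to -0.73 on 3 slides. The difference from void was -0.89 with N+C arrays 1 to 3 and -0.70 with arrays 4 and 5, called in both. The summed level of the 4 fibroblast markers was also lower in these groups, at 0.171 to 0.617 with N+C and 0.598 to 0.662 with the C-fragment, against 1.20 to 1.51 with void. It was 1.10 to 1.47 with D361E and 0.965 to 1.06 with WT, where Relb was high. The part of these markers in the Relb results was not tested.

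Relb with the C-fragment or N+C lay further from WT than the void level did. The C-fragment was lower than WT by log2 -1.66 ± 0.11 (adjusted p = 1.71e-07) and N+C by -1.93 ± 0.10 (adjusted p = 1.81e-09), a level 0.263 times that of WT. The N-fragment exceeded the C-fragment by log2 0.89 ± 0.11 (adjusted p = 2.13e-05), and N+C lay below the N-fragment by -1.16 ± 0.10 (adjusted p = 4.17e-07). N+C also lay below all C-fragment arrays, but the difference was not called (log2 -0.27 ± 0.10, adjusted p = 0.0717). It was called when slide was a block (log2 -0.31, adjusted p = 0.0384) and with N+C arrays 1 to 3 alone (-0.34, adjusted p = 0.0242), but not with arrays 4 and 5 (-0.16, adjusted p = 0.339). The order of Relb levels was D361E, WT, N-fragment, void, C-fragment and N+C. Of its neighbours, D361E with WT and C-fragment with N+C were not called different.

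The second Relb probe (A_55_P2168736, accession NM_001290457) followed the first, with Pearson r of 0.986 over the 20 arrays, which share groups and slides, and the same sign in 13 of 13 comparisons (12 of 13 when slide was a block). It rose 2.05-fold with WT (log2 1.04 ± 0.17, adjusted p = 0.0012) and 2.34-fold with D361E (log2 1.23 ± 0.17, adjusted p = 0.000139). It fell with the C-fragment (log2 -0.67 ± 0.17, adjusted p = 0.0157) and with N+C (log2 -0.86 ± 0.15, adjusted p = 0.000619). The N+C difference was -1.03 with arrays 1 to 3 and -0.60 with arrays 4 and 5, called in both. The N-fragment difference from void was of the same size as on the first probe but was not called (log2 0.33 ± 0.17, adjusted p = 0.154), and was called when slide was a block (0.43, adjusted p = 0.00316). The C-fragment call was lost without void array 2 (adjusted p = 0.051), void array 3 (0.0706) or C-fragment array 2 (0.0502). The difference between N+C and the C-fragment on this probe was log2 -0.18 ± 0.15 (adjusted p = 0.445), and -0.39 when slide was a block (adjusted p = 0.00725).

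**Figure D2:**
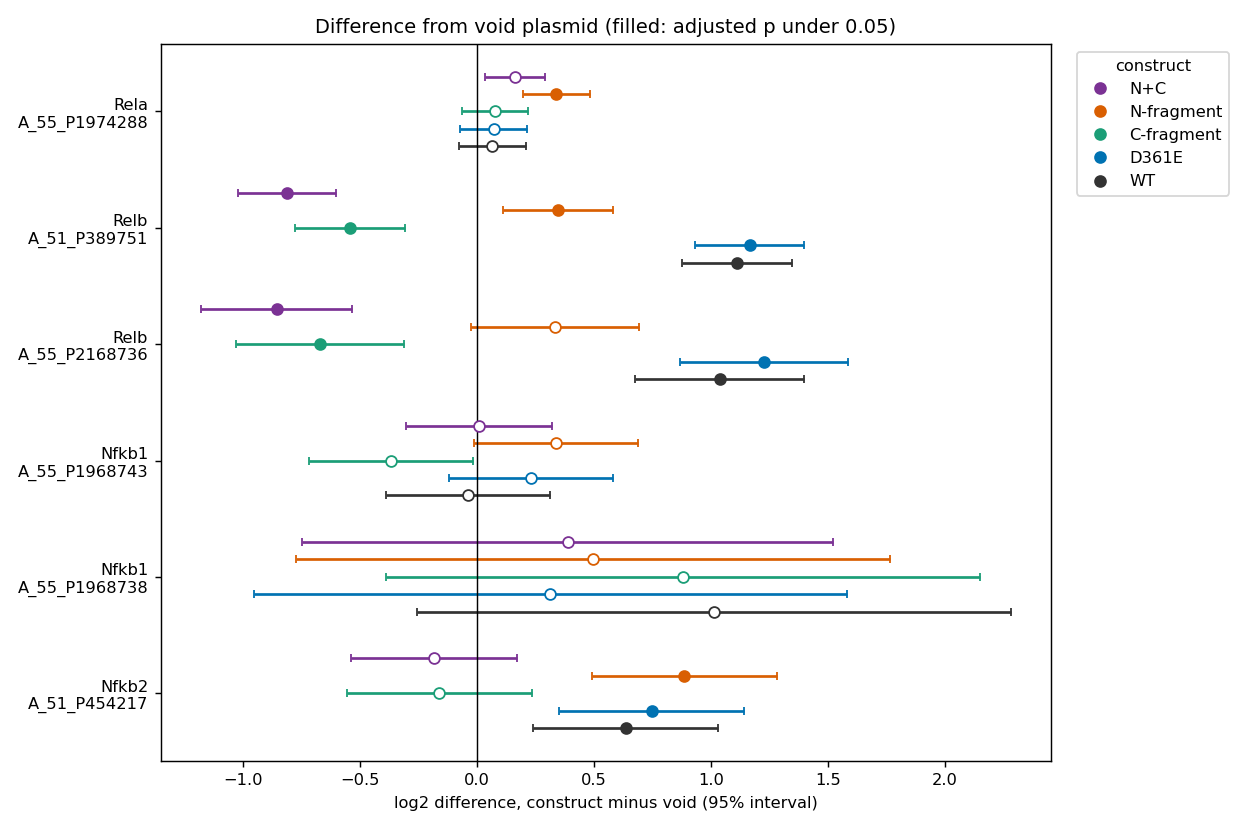
Log2 difference from void of the 6 tested NF-kB subunit probes for each construct (x axis), with 95% intervals of the limma fit; filled points were called at an adjusted p under 0.05. Both Relb probes lie to the right of 0 with WT and D361E and to the left with C-fragment and N+C, and Nfkb2 lies to the right with WT, D361E and N-fragment.

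Rel, the gene of c-Rel, which is best known from lymphoid cells, was not well above background on any of the 20 arrays. Its probe (A_51_P187461, accession NM_009044) had intensities of 2.95 to 7.15, while the lowest signal of any probe well above background was 12.4 to 32.2 on these arrays. The Rel signal lay below that limit on all 20 arrays, so only an upper bound is known and no fold change is given.

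Nfkb2, the gene of the p100 precursor, was higher with WT, D361E and the N-fragment, and near the void level with the C-fragment and N+C. Its probe (A_51_P454217, accession NM_019408) had relative levels of 3.28, 2.39 and 2.15 on the N-fragment arrays and 1.19, 1.42 and 1.58 on the void arrays. The D361E arrays read 1.79, 3.1 and 2.28 and the WT arrays 2.08, 2.16 and 2.24. All arrays of these 3 constructs lay above all void arrays, and they overlapped each other.

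The N-fragment raised Nfkb2 1.85-fold over void (log2 0.89 ± 0.19, adjusted p = 0.00167), with 0.97 when slide was a block and 1.05 on the 1 shared slide. D361E raised it 1.68-fold (log2 0.75 ± 0.19, adjusted p = 0.0131), with 0.77 when slide was a block and 0.68 to 0.97 on 2 slides. This call was lost without void array 1 (adjusted p = 0.0617), without D361E array 2 (0.0619) and in a fit on the compared arrays alone (0.121). WT raised it 1.55-fold (log2 0.64 ± 0.19, adjusted p = 0.0421), a call lost when any 1 of the 6 arrays was left out (adjusted p of 0.0551 to 0.124). With slide as a block the WT difference was 1.86-fold (log2 0.89, adjusted p = 9.91e-05), and on the 1 shared slide it was 0.86.

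The relative level of Nfkb2 was 1.16, 1.03, 1.15, 1.38 and 1.43 on the N+C arrays and 1.28, 1.23 and 1.21 on the C-fragment arrays. Both groups overlapped the void arrays. The differences from void were log2 -0.18 ± 0.17 for N+C (95% interval -0.54 to 0.17, adjusted p = 0.478) and -0.16 ± 0.19 for the C-fragment (-0.56 to 0.23, adjusted p = 0.611). N+C gave -0.32 with arrays 1 to 3 and 0.02 with arrays 4 and 5, neither called.

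Both were below WT in Nfkb2. N+C was lower by log2 -0.82 ± 0.17 (adjusted p = 0.00196) and the C-fragment by -0.80 ± 0.19 (adjusted p = 0.0215). The C-fragment call was lost when any 1 array of either group was left out (adjusted p of 0.065 to 0.0789). With slide as a block the differences from WT were -0.80 for the C-fragment (adjusted p = 0.000115) and -1.04 for N+C (adjusted p = 3.6e-06). The 3 slides that hold both C-fragment and WT gave -0.84 to -0.75, and the 2 that hold both N+C and WT gave -1.06 and -0.96. The N-fragment exceeded the C-fragment by log2 1.05 ± 0.19 (adjusted p = 0.000672), and N+C lay below the N-fragment by -1.07 ± 0.17 (adjusted p = 0.00021). With N+C arrays 4 and 5 alone the difference from WT was -0.62 (adjusted p = 0.0429), and with arrays 1 to 3 it was -0.95 (adjusted p = 0.000902).

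Unlike Relb, Nfkb2 showed no called difference between the N-fragment and WT (log2 0.25 ± 0.19, 95% interval -0.14 to 0.65, adjusted p = 0.361). Whether the difference itself varies between the genes was not tested. The N-fragment and D361E differed by log2 0.14 ± 0.19 (adjusted p = 0.677), and D361E and WT by 0.11 ± 0.19 (adjusted p = 0.81). The order of Nfkb2 levels was N-fragment, D361E, WT, void, C-fragment and N+C, and of its neighbours WT and void were called different. N+C and the C-fragment differed in Nfkb2 by log2 -0.02 (adjusted p = 0.947), but by -0.24 (adjusted p = 0.0401) when slide was a block.

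**Figure D3:**
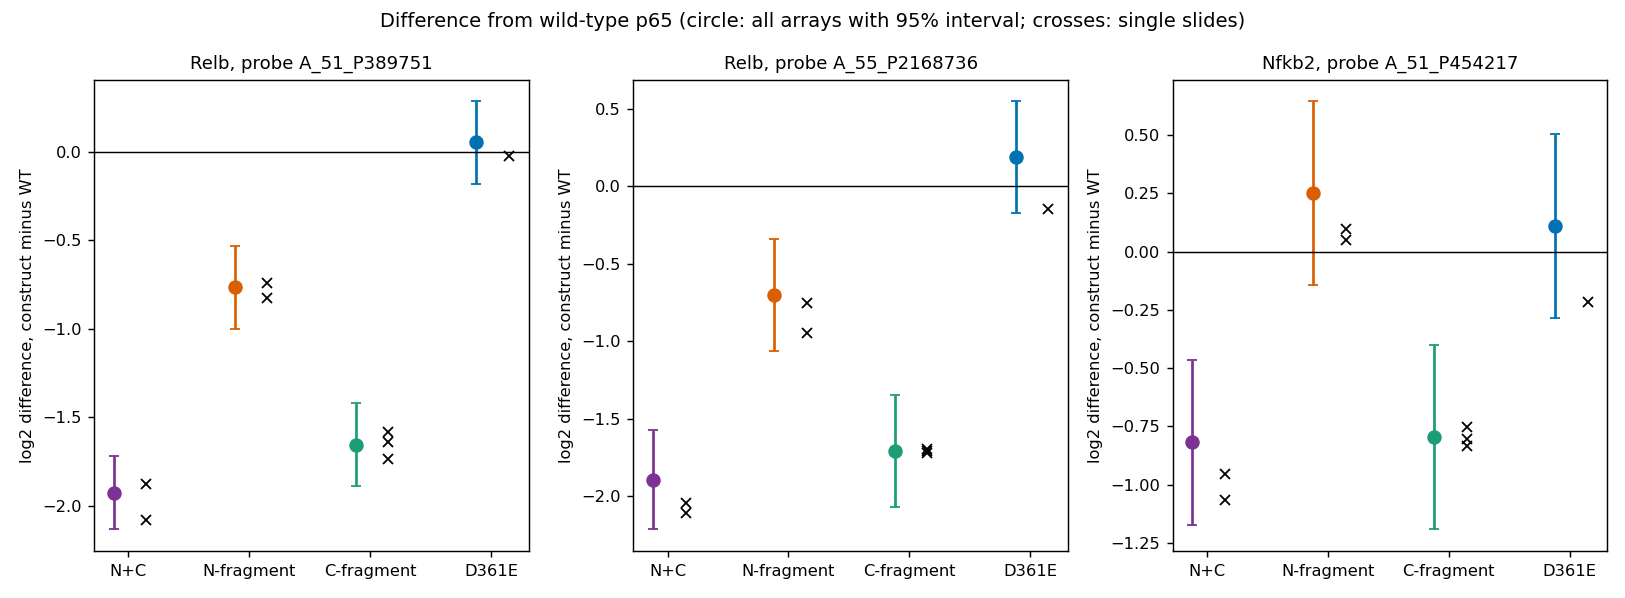
Log2 difference of each construct from WT (y axis) for both Relb probes and Nfkb2; circles give all arrays with the 95% interval of the limma fit, and crosses the difference within each slide that holds both groups. N+C and C-fragment lie below 0 in every panel and on every shared slide, and the N-fragment lies below 0 for Relb alone.

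Nfkb1, the gene of the p105 precursor, was called against void on neither of its probes, and these disagreed where slide was left out of the fit. The probe A_55_P1968743 (accession NM_008689) had relative levels of 0.460, 0.362 and 0.323 on the N-fragment arrays and 0.260, 0.213 and 0.223 on the C-fragment arrays. The N-fragment arrays all lay above the C-fragment arrays, a 1.63-fold difference (log2 0.71 ± 0.16, adjusted p = 0.00574), with 0.56 when slide was a block and 0.48 to 0.60 on 2 slides. No comparison with void was called on this probe. The differences from void were log2 0.01 ± 0.15 for N+C, 0.34 ± 0.16 for the N-fragment (adjusted p = 0.14), -0.37 ± 0.16 for the C-fragment (adjusted p = 0.159), 0.23 ± 0.16 for D361E and -0.04 ± 0.16 for WT. The void arrays read 0.251, 0.327 and 0.326.

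With slide as a block the spread of this probe fell to a residual SD of 0.09 on the log2 scale, against 0.21 without it. The N-fragment was then above void (log2 0.42, adjusted p = 0.00171) and above WT (0.23, adjusted p = 0.0343). In the same fit the C-fragment was below WT (-0.33, adjusted p = 0.0165) and N+C below the N-fragment (-0.42, adjusted p = 0.00131). In the fit without slide, the order of Nfkb1 levels was N-fragment, D361E, N+C, void, WT and C-fragment. None of the neighbours tested was called different in that fit. With slide as a block, WT instead lay above void (log2 0.19, adjusted p = 0.172) and N+C below WT (-0.18, adjusted p = 0.0825). N+C arrays 1 to 3 alone were called below the N-fragment (log2 -0.48, adjusted p = 0.0204), and arrays 4 and 5 alone above the C-fragment (0.61, adjusted p = 0.0167), on this probe.

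The other Nfkb1 probe (A_55_P1968738), which carries the same accession, was called in 0 of 13 comparisons, each with an unadjusted p above 0.05. Its levels followed the slide rather than the construct. Log2 relative levels were -4.52 to -3.98 on the 4 arrays of slide 2, -3.43 to -2.90 on slide 5 and -2.80 to -2.20 on slides 1, 3 and 4. Its residual SD was 0.77, larger than in all but 8.76% of tested probes, and was 0.15 when slide was a block. The Nfkb1 probes correlated at r = -0.58 over the 20 arrays, which share slides, and had the same sign in 6 of 13 comparisons, but in 11 of 13 when slide was a block. With slide as a block the N-fragment was above void on this probe too (log2 0.41, adjusted p = 0.0336). The cause of the slide pattern was not tested.

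**Figure D4:**
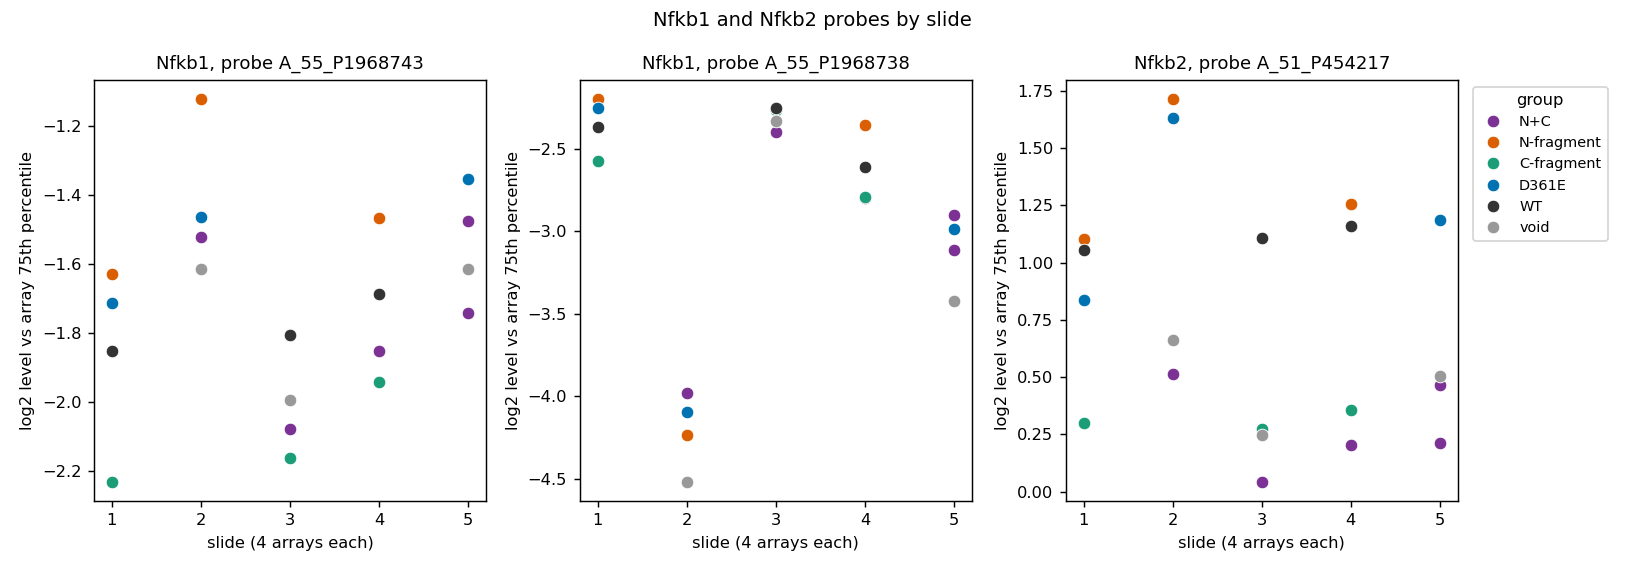
Log2 relative level (y axis) of both Nfkb1 probes and the Nfkb2 probe on each of the 5 slides (x axis), 4 arrays per slide, coloured by group. The Nfkb1 probe in the middle panel was lowest on slide 2 (-4.52 to -3.98) whatever the group, while Nfkb2 on slide 2 had the highest array of each group present there.

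Counted over the family, the constructs called different numbers of the 6 tested probes, which stand for 4 genes. Against void, 3 of 6 probes were called with WT, all higher (Relb and Nfkb2), where 9.63% of all tested probes were called (2.91% higher and 6.72% lower). With D361E the same 3 probes were called, all higher, against 13.7% overall (5.65% higher and 8.01% lower). With the N-fragment 3 of 6 were called, all higher (Rela, Relb and Nfkb2), against 31.7% (12.1% higher and 19.6% lower). With slide as a block all 6 of 6 were called higher with the N-fragment, where 36.6% of all probes were called. The C-fragment had 2 of 6, both Relb and lower, against 13.5% (4.5% higher and 8.98% lower). N+C had the same 2, lower, against 25.1% (10.8% higher and 14.3% lower). The share of called probes that were higher depended on the scaling. It was 30.2% with WT, 41.3% with D361E, 38.2% with the N-fragment, 33.4% with the C-fragment and 43% with N+C here, was 44.4 to 55.8% after quantile normalization, and was 76.9 to 96.8% on unscaled intensities. These comparisons share the void arrays. The median difference over the 6 probes was log2 0.82 with WT, 0.53 with D361E, 0.34 with the N-fragment, -0.27 with the C-fragment and -0.09 with N+C, while that over all tested probes lay between -0.08 and -0.03. These medians include the Nfkb1 probe that followed the slide. With slide as a block they were 0.58 with WT, 0.57 with D361E, 0.42 with the N-fragment, -0.02 with the C-fragment and -0.07 with N+C.

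Against WT, D361E had 0 of 6 family probes called by limma, where 4.16% of all probes were called, and 0 of the 6 had an unadjusted p under 0.05. The N-fragment had 3 of 6 called, Rela higher and both Relb probes lower, against 27.4% (13.1% higher and 14.3% lower). The C-fragment had 3 of 6, both Relb probes and Nfkb2, all lower, against 4.47% (2.3% lower), and N+C the same 3, lower, against 23.4% (10.2% lower). Between the fragments, 5 of 6 probes were higher with the N-fragment than with the C-fragment, against 20.2% of all probes called (9.52% higher). Of 3 comparisons added after the data were seen, N+C against the N-fragment had 4 of 6 called, all lower, where 22.2% were called overall (9.24% lower). N+C against the C-fragment had 0 of 6, where 17.3% were called (3 of 6, all lower, against 20.3% with slide as a block), and the N-fragment against D361E had 3 of 6, where 24.7% were called (10.5% higher and 14.2% lower). Here too the share of called probes that were higher moved when intensities were left unscaled. Against WT it was 48.7% for the C-fragment and 7.26% unscaled, and for N+C 56.3% and 20.5% unscaled. For the N-fragment it was 47% against the C-fragment (71.1% unscaled) and 42.4% against D361E (75% unscaled), and for N+C against the N-fragment it was 58.4% (31.5% unscaled). In N+C against the C-fragment 2 probes had an unadjusted p under 0.05, the brighter Relb probe (0.0144) and the Nfkb1 probe A_55_P1968743 (0.0213).

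Genes around the family were counted from lists. From each list, up to 2 genes per direction and construct with the largest called change against void are named. A construct left out for a gene may therefore still have changed it. Of 10 IkB family genes and feedback inhibitors, all tested, 3 rose and 0 fell with WT (9.63% of all probes were called), 2 rose and 0 fell with D361E (13.7%), and 3 rose and 0 fell with the N-fragment (31.7%). With the C-fragment 0 rose and 2 fell (13.5%), and with N+C 0 rose and 4 fell (25.1%). The list's median log2 difference was 0.22 with WT, 0.23 with D361E, 0.08 with the N-fragment, -0.22 with the C-fragment and -0.31 with N+C. Tnfaip3, a ubiquitin-editing inhibitor of NF-kB signalling, rose 6.04-fold with WT, 10.4-fold with D361E and 4.12-fold with the N-fragment (adjusted p of 2.1e-08, 3.68e-10 and 2.94e-08). It was at least 2.25-fold lower with the C-fragment, where no array was above background, the bound being set against the lowest signal well above background on each array (adjusted p = 4.91e-06). With N+C it was called lower too (adjusted p = 2.81e-06), but 1 of 5 arrays was above background, so no size is given. Nfkbia, which encodes the inhibitor IkB-alpha, rose 2.88-fold with D361E and 2.18-fold with the N-fragment. Bcl3, a nuclear IkB protein that binds p50 and p52, rose 2.53-fold with WT and fell with the C-fragment (log2 -1.44 ± 0.16, adjusted p = 3.11e-05) and N+C (-0.75 ± 0.14, adjusted p = 0.00118).

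Of 14 genes of the IKK complex and its upstream kinases and adaptors, 1 rose with WT (9.63% of all probes were called), 3 rose with D361E (13.7%), and with the N-fragment 2 rose and 1 fell (31.7%). None was called with the C-fragment (13.5%), and 3 fell with N+C (25.1%). The list's median log2 difference lay between -0.08 with the C-fragment and 0.12 with D361E. Btrc, which encodes the ligase subunit that recognises phosphorylated IkB, rose 1.55-fold with the N-fragment (adjusted p = 0.000312), and the adaptor gene Tank fell (log2 -0.29, adjusted p = 0.0115). Chuk, which encodes the IKK-alpha kinase, rose 1.19-fold with the N-fragment (adjusted p = 0.00141). Ikbkg, the regulatory IKK subunit, fell with N+C (log2 -0.29 ± 0.10, adjusted p = 0.0429), and Ikbke, an IKK-related kinase, fell by 1.89 ± 0.58 (adjusted p = 0.0249). Ikbke was above background on 4 of 5 N+C arrays, so the size of its fall is uncertain. The signalling adaptors Traf2 and Traf3 rose 1.27-fold and 1.22-fold with D361E, and Traf6 rose 1.29-fold with WT.

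Of 13 transcriptional partners and modifiers of p65, 1 fell with WT (9.63% of all probes were called), 1 with D361E (13.7%), 3 with the N-fragment (31.7%) and 1 with the C-fragment (13.5%), and with N+C 2 rose and 3 fell (25.1%). The list's median log2 difference lay between -0.11 with D361E and 0.02 with N+C. Crebbp, the acetyltransferase CBP, fell with the N-fragment (log2 -0.44 ± 0.07, adjusted p = 0.000232), WT (-0.32 ± 0.07, adjusted p = 0.0115) and the C-fragment (-0.23 ± 0.07, adjusted p = 0.0497). Prkaca, a catalytic subunit of protein kinase A, fell with the N-fragment (-0.31, adjusted p = 0.0333), and the deacetylase gene Hdac3 rose 1.27-fold with N+C (adjusted p = 0.0276). Sirt1, a deacetylase of p65, fell with D361E (-0.87 ± 0.10, adjusted p = 2.45e-05) and N+C (-0.41 ± 0.09, adjusted p = 0.00327).

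Of 18 textbook NF-kB targets outside the family, 17 were on the array and 9 were tested. Among these 3 rose with WT (9.63% of all probes were called), 2 with D361E (13.7%), 4 with the N-fragment (31.7%) and 3 with N+C (25.1%), and none fell with those constructs. With the C-fragment 0 rose and 1 fell (13.5%). The list's median log2 difference was 0.38 with WT, 0.45 with D361E, 0.56 with the N-fragment, -0.01 with the C-fragment and -0.14 with N+C. Cxcl1 and Birc3, both of this list, were above background on 0 void arrays and entered the fit through arrays of the constructs. Such genes can hardly fall below void, so the filter in part fixes these counts and medians. The interferon-inducible chemokine Cxcl10 rose 3.01-fold with WT (adjusted p = 7.84e-09) and 5.54-fold with D361E (adjusted p = 2.01e-11), and fell with the C-fragment (log2 -1.32 ± 0.08, adjusted p = 5.52e-08). The neutrophil chemokine Cxcl1 was at least 6.01-fold higher with WT (adjusted p = 5.41e-05) and at least 2.10-fold higher with D361E (adjusted p = 0.00185), above background on 3 of 3 arrays of each and on 0 void arrays.

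The T-cell chemokine Ccl5 rose 12.1-fold with the N-fragment (adjusted p = 2.2e-10) and 8.27-fold with N+C (adjusted p = 1.11e-09), the group in which Relb was lowest. Its values with the other constructs are not given here, nor those of Cxcl10 and Cxcl1 with the N-fragment and N+C. Birc3, an apoptosis inhibitor, was at least 2.86-fold higher with the N-fragment (adjusted p = 0.000274), above background on 0 void arrays. Bcl2l1, the gene of Bcl-xL, rose 2.13-fold with N+C (adjusted p = 0.00128).

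The genes whose log2 level followed each member most closely were ranked by Pearson correlation over the 20 arrays, which share groups, slides and scaling. For the brighter Relb probe these were Tnfaip3 (r = 0.959), Parp8 (0.950) and Mvp (0.939). For Nfkb2 they were Tbcc (0.929), Tmem251 (0.925) and Ap3d1 (0.924). Sri (0.882), Nek6 (0.882) and Il17rc (0.876) were closest to the Nfkb1 probe A_55_P1968743, and Cfap52 (0.882), Ezh2 (0.874) and Hnrnpm (0.869) to Rela. Cfap52 was above background on 4 of 20 arrays, the 3 N-fragment arrays among them, and Tnfaip3 on 13 of 20, so their correlations rest in part on signals near background; the other genes named were above it on all 20. Tnfaip3 averaged a log2 level of -2.47 ± 0.19 with the N-fragment, -1.14 ± 0.24 with D361E, -1.92 ± 0.07 with WT and -4.51 ± 0.03 with void (SD, n = 3), while it was above background on 1 of 5 N+C arrays and on 0 of 3 C-fragment arrays. Like Relb, it was higher with WT, D361E and the N-fragment and lower with N+C and the C-fragment than with void. Because Tnfaip3 was picked here for its correlation with Relb, this shared pattern is no further evidence of likeness.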

How the data were processed

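Total RNA of the 20 samples was hybridised by the authors to Agilent arrays, and the deposited intensity of each spot comes from Feature Extraction 10.7.3.1 (Agilent), per the submitters' processing notes. Per the file headers the probes refer to build mm9. The deposited series table equals the processed signal of each array, so the authors applied no scaling between arrays in it. Each deposited processed intensity was turned into log2, less the 75th percentile of the non-control probes of its array. Spots of a probe were averaged without those marked as outliers (98 to 285 on an array); saturated spots numbered 0. The fit took probes that passed the scanner's background test on 3 or more of 20 arrays, using limma 3.58.1 in R 4.3.3 (6 groups, residual df 14), with Benjamini-Hochberg adjustment, after the code was tested on simulated data. Probes were named by accession through RefSeq. Named were all members, up to 2 genes per list and direction with the largest called change against void, and the 3 genes most correlated with each member. Some genes that this rule names are not reported here. The members and lists were chosen with earlier results of these data known. The normexp alternative used median signals, and mean signals were not used here. The number of arrays limits the precision.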

Additional observations from a re-analysis of the deposited data

How the results depend on the processing

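No paired analysis was possible because the running numbers in the sample titles link no arrays across groups; slide, which does, was fitted as a block. Of 34 called differences 0 changed sign in any setting; leaving out 1 array kept the call in 194 fits and lost it in 28, and the other settings kept it in 302 and lost it in 12. Of the member genes called, WT against void had 2, with 1 without the filter on dim probes and 1 without any 1 array. D361E against void had 2, with 1 in a fit on the compared arrays alone and 1 to 2 without 1 array. N-fragment against void had 3, with 2 without the filter on dim probes, 4 unscaled, 4 with slide as a block and 2 to 3 without 1 array. C-fragment against void had 1, with 2 unscaled. N+C against void had 1, with 2 after quantile normalization, after normexp with quantile normalization, unscaled and with slide as a block. N-fragment against WT had 2, with 1 unscaled and 1 on the compared arrays alone. C-fragment against WT had 2, with 1 without any 1 array. N-fragment against D361E had 2, with 1 on the compared arrays alone. N+C against C-fragment had 0, with 2 after normexp, 1 unscaled, 2 with slide as a block, 0 to 1 without 1 array, and 1 either without N+C arrays 4 and 5 or without arrays 1 to 3. Signs turned in differences that were not called in these settings. For Nfkb1 (A_55_P1968743), WT against void was 0.37 unscaled, 0.19 with slide as a block and -0.17 to 0.023 without 1 array; N+C against void was -0.12 to 0.093 without 1 array and -0.15 without N+C arrays 4 and 5. For Nfkb2, C-fragment against void was 0.081 unscaled and 0.10 with slide as a block, and N+C against void 0.044 unscaled and 0.018 without N+C arrays 1 to 3. D361E against WT was, for Rela, -0.24 unscaled and -0.040 to 0.058 without 1 array; for the brighter Relb probe -0.033 after normexp, -0.19 unscaled and -0.085 to 0.13 without 1 array; for the other Relb probe -0.053 unscaled and -0.033 with slide as a block; and for Nfkb2 -0.011 after normexp, -0.13 unscaled, -0.13 with slide as a block and -0.096 to 0.30 without 1 array. For Rela, C-fragment against WT was -0.074 after quantile normalization, -0.075 after normexp, -0.15 unscaled, -0.025 with the percentile over probes detected on all arrays and -0.012 to 0.030 without 1 array, and N+C against WT was -0.084 unscaled. N+C against C-fragment was 0.071 for the second Relb probe without N+C arrays 1 to 3, and for Nfkb2 0.18 without those arrays and -0.078 to 0.040 without 1 array. Unscaled values shift the median of all probes (WT against void 0.36, against -0.04 when scaled); the other causes were not tested. Signal over background limits Rel, which no array measured.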
